A study of Homo sapiens with 15 samples.

Results

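The comparison described here set 3 RNA sequencing libraries of K562 cells given JQ1-FCPF together with sgRNA against 3 given JQ1-FCPF without sgRNA, chosen by the genotype and treatment in their labels, 6 of the 15 libraries of the series. K562 is an established human line from a chronic myeloid leukaemia that carries the BCR-ABL1 fusion kinase and keeps an erythroid and megakaryocytic character. All 6 libraries came from cells transfected with Cas9FCPF, a Cas9 protein bearing the FCPF peptide, and exposed for 1 h to JQ1-FCPF at 1 µM. The groups are labelled Cas9FCPF+sgRNA and Cas9FCPF-sgRNA. The series title has dCas9, a form that binds DNA without cutting it, in place of the Cas9 of the labels. The other 9 libraries, 3 each, were JQ1 at 1 µM for 1 h with sgRNA, JQ1 without sgRNA, and a control labelled as untreated wild type, where the text of the series names DMSO. The sgRNA target is absent from the labels and was taken, from knowledge of the study, to be MYC. Whether the replicates were separate cultures is not stated, so the p-values reflect only how much these samples varied, and that variation may be technical.

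BET proteins bind acetylated histones through their bromodomains and recruit the elongation factor P-TEFb to promoters and enhancers. JQ1 occupies those bromodomains, and transcripts with short half-lives that depend on enhancers, MYC among them, are known to fall early after BET inhibition, while histone genes, TXNIP and HEXIM1 are known to rise. The name JQ1-FCPF joins JQ1 to FCPF, the name of the peptide carried by the Cas9 protein, which a sgRNA directs to a DNA site.

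Total counts of the 6 libraries lay between 12625669 and 17114429, and 15517 of 57500 genes were tested. Replicate 2 with sgRNA stood apart. On the first principal component of all 15 libraries (29% of the variance) it lay at 32.2, whereas the other 5 libraries lay between -21.8 and -14.8, the control at -24.7 to -20.9 and the 6 libraries given JQ1 at 16.8 to 24.6. On the second component (15.5%) the 3 libraries with sgRNA lay at -40, -16.4 and -27.2 and the 12 others between -12.5 and 15, so that replicate 2 was nearer to JQ1 with sgRNA replicate 1, at -12.5, than to its own group. Counts and calls are therefore mostly given with that replicate and, where they changed, without it. Fold changes of single genes include that replicate unless stated otherwise, and a value given once may differ without it. Among 12 listed K562 markers the summed level was 2130 to 2300 CPM (counts scaled to a common library size) without and 1960 to 2240 CPM with sgRNA, and 4 of the 12 fell (3 without replicate 2). Few markers of other cells could be tested: 2 of 6 for B cells, 3 of 8 for T and NK cells and 3 of 8 for monocytes. For epithelium 4 of 7 were tested and for fibroblasts 1 of 7. Of these tested markers 1 was called, the collagen gene COL1A1, which went from 1.91, 1.98 and 2 CPM to 6.13, 4.09 and 4.36 CPM. The 7 fibroblast markers, of which COL1A1 was the 1 tested, summed to 2.28 to 2.62 CPM without and 4.49 to 6.9 CPM with sgRNA, and their part in the results was not tested. In bulk samples fewer cells of a type and less RNA per cell cannot be told apart.

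By edgeR's quasi-likelihood test at a Benjamini-Hochberg adjusted p under 0.05, 970 genes (6.25%) were called, 319 higher (2.06%) and 651 lower (4.2%) with sgRNA. Without replicate 2 the test called 947 of the same 15517 tested genes (6.1%), 268 higher (1.73%) and 679 lower (4.38%). Genes called in the same direction by both numbered 666 (4.29%), 168 higher (1.08%) and 498 lower (3.21%). No gene switched direction between these fits. The count depended on the libraries without sgRNA as well: it was 487 without their replicate 2 and 428 without their replicate 3, and 351 when only the 6 libraries were fitted. That fit of the 6 called 1018 genes once replicate 2 with sgRNA was left out. Of the called genes 87 rose and 152 fell past 2-fold, and 74 and 131 of these were also called without replicate 2. The median log2 fold change over all genes tested was 0.01 with and without that replicate.

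**Figure D1:**
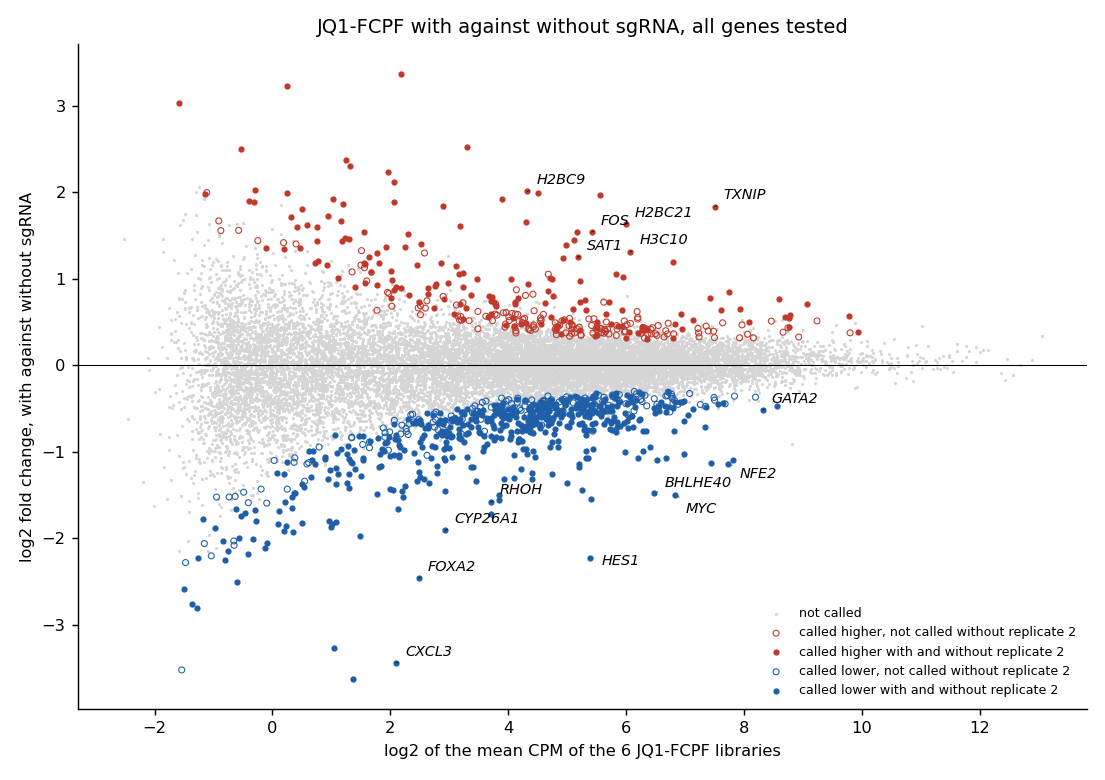
Each point is a tested gene, with the log2 of its mean CPM in the 6 JQ1-FCPF libraries on the horizontal axis and its log2 fold change with against without sgRNA on the vertical axis. Filled points are called with and without replicate 2 and open ones only with it; HES1, MYC and BHLHE40 lie below the bulk of genes of their level, and TXNIP and H2BC9 above.

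JQ1-FCPF without sgRNA gave few calls against the control: 1 gene was called (0.00644%), with 285 genes at an unadjusted p under 0.05. That gene, the TGF-beta feedback repressor SKIL, had a mean of 33.8 CPM in the control and 17.5, 17.8 and 15.6 CPM with JQ1-FCPF without sgRNA. With sgRNA it stood at 15, 20.9 and 14.6 CPM, so that the JQ1-FCPF groups overlapped.

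MYC, a transcription factor that drives growth and ribosome production, was read first. Its level was 197, 136 and 171 CPM without sgRNA and 60.2, 57.3 and 61.0 CPM with sgRNA. The groups did not overlap, as for 3505 genes tested (22.6%; 9.98% higher and 12.6% lower), and the 3 libraries with sgRNA lay within 4 CPM of each other, replicate 2 included. Among called genes, 285 of 319 higher and 645 of 651 lower did not overlap, so here and below the trait adds little to a call. It was also required of genes named for the size of their rise or fall. Without replicate 2 the log2 fold change of MYC was -1.47 (edgeR adjusted p = 8.57e-07), beside -1.50 ± 0.14 (SE) with it. Within 2000000 bases of MYC (GRCh38), 6 genes were tested and MYC was the 1 gene called. PVT1, the long non-coding RNA gene beside MYC, stood at 27.6, 34.4 and 33.0 CPM without and 34.6, 29 and 30.8 CPM with sgRNA. Of 11 tested genes for MYC and its dimerisation partners, MYC and MLX, a partner of the glucose sensor MondoA, were called lower. MLX stood at 75.5, 71.1 and 69.0 CPM without and 54.9, 57.8 and 57.6 CPM with sgRNA, a 1.27-fold fall (edgeR adjusted p = 0.0186), a call lost in 4 of 15 settings.

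**Figure D2:**
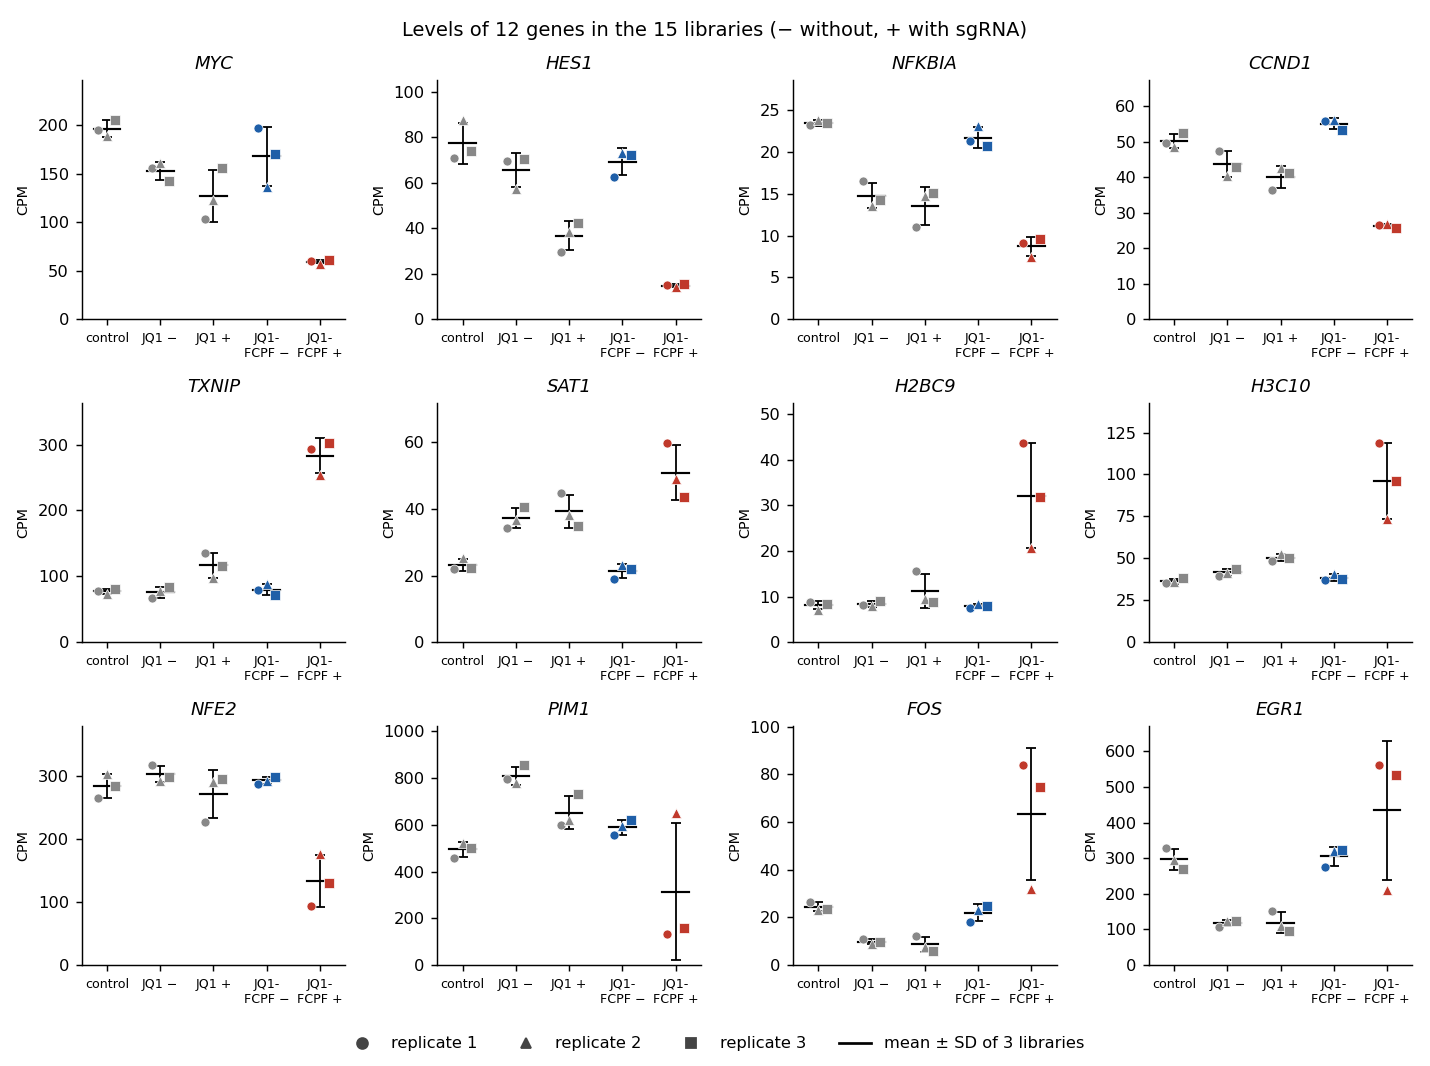
Levels in CPM of 12 genes in the 15 libraries, with the mean and SD of 3 libraries per group as bars and a marker shape for each replicate. In the JQ1-FCPF group with sgRNA the 3 replicates of MYC, HES1, CCND1 and TXNIP lie together, whereas replicate 2 of PIM1, FOS and EGR1 lies apart from the other 2.

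The promoters of 5 called genes are shown next, 1 or 2 each from the Notch, NF-kB, BET inhibitor marker and histone lists, for the elements they hold. Each is 250 bases before to 50 after the annotated start, read 5′ to 3′ on the gene's strand from RefSeq's GRCh38.p14 annotation, and capitals mark the motifs named for each, searched on both strands. Left in lower case are a kB match from 32 to 41 bases after the start of HES1, TGGGAA on the other strand 188 bases before that of TXNIP, and TATAAA on the other strand 33 bases before that of NFKBIA. So are a match to the serum response element 164 to 155 bases before the start of H2BC21 and, on the other strand, the GATA motif AGATAA 24 to 29 bases after that of H2BC9. HES1 (chr3:194135898-194136197, plus strand) has TGGGAA, the core of the site bound by the Notch effector RBPJ, at both 84 and 70 bases before its start, and 3 copies of CCAAT. NFKBIA (chr14:35404700-35404999, minus strand) has a match to the kB motif, the site of NF-kB. TXNIP (chr1:145996530-145996829, minus strand) has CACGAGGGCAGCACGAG, a match to the carbohydrate response element, a pair of E-box-like repeats added to the search after the values were seen and able to overlap the E-box CACGTG, and 2 copies of CCAAT. H2BC21 (chr1:149886633-149886932, minus strand) and H2BC9 (chr6:26251364-26251663, plus strand) have the octamer ATTTGCAT, bound by OCT1, with CCAAT boxes upstream of it, and H2BC21 has TATAAA as well.
HES1: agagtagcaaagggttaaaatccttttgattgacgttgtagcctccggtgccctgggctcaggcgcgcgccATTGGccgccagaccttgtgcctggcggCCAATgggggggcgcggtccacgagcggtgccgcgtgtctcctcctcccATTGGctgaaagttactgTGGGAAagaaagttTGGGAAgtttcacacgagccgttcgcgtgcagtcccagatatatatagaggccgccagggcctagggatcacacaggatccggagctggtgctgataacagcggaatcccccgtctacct
NFKBIA: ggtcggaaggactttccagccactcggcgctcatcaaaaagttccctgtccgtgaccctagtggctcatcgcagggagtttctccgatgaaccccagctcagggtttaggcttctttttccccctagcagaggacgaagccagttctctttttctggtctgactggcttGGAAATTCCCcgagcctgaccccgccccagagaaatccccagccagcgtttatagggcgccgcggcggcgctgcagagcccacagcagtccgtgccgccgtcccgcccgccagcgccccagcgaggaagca
TXNIP: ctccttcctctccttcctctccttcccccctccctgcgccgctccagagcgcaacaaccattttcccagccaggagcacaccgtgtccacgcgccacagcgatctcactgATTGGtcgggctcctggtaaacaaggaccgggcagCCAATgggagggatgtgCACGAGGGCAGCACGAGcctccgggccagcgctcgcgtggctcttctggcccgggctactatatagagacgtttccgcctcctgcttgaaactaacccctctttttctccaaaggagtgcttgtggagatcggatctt
H2BC21: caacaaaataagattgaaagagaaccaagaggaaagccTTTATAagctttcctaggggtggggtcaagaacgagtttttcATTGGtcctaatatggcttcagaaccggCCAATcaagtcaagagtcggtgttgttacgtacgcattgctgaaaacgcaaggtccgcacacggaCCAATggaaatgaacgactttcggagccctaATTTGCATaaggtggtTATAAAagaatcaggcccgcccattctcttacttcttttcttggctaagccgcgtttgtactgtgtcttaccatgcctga
H2BC9: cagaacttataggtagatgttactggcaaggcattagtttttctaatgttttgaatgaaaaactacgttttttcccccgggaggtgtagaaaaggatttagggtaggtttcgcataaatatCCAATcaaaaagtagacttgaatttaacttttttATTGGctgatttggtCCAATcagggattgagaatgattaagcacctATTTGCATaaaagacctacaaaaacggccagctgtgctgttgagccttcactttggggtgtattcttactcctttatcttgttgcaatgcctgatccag

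Of 27305 promoters of that table, TGGGAA was found in 24.3%, the kB motif in 6.47%, the carbohydrate response element in 0.0732%, CCAAT in 35.7%, TATAAA in 12% and the octamer in 1.8%. Among tested genes 10659 matched a promoter by symbol. The octamer stood in 13 of 24 matched promoters of histone genes called higher (54.2%), in 5 of 219 of the other genes called higher (2.28%) and in 5 of 463 of genes called lower (1.08%). Histone genes that were not called were not counted as a set, and 12 of the 26 called higher are H2B genes. Whether the octamer goes with the rise or with the histone family was not tested. The kB motif stood in 4 of 7 matched promoters of NF-kB target genes called lower (57.1%), but in 36 of all 463 genes called lower (7.78%), close to the 7.66% of all tested genes. The carbohydrate response element was found in 16 promoters of tested genes, of which 2 were called higher and 0 lower. The promoter of ARRDC4, a gene described below, was searched too and is not shown. It held no match to that element, but had CCAAT boxes and the E-box CACGTG from 210 to 205 bases before the start. A match is a description of letters in this window and not evidence that a factor bound there.

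Among the lists counted, histone genes gave the most rises by number, though not by share. Beside each list stands the share over all genes tested, 2.06% higher and 4.2% lower (1.73% and 4.38% without replicate 2). The lists were written with earlier results of these data known, so their counts are not independent of the values. Replication-dependent histone genes encode the bulk of nucleosome proteins, are expressed mainly in S phase and lie in clusters on chromosomes 6 and 1. Of 44 tested, 26 rose and 0 fell (27 and 0 without replicate 2), with a median log2 fold change of 0.80 (1.02 without replicate 2) against 0.01 over all genes. By type, 12 of 13 H2B genes, 4 of 6 H3 genes, 6 of 10 H4 genes, 4 of 11 H2A genes and 0 of 4 H1 genes rose. On chromosome 6, 23 of 38 rose, and on chromosome 1, 3 of 6. Under JQ1 the same 44 genes had a median log2 fold change of -0.09 with against without sgRNA.

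H2BC9 stood at 7.45, 8.44 and 8 CPM without sgRNA and at 43.8, 20.7 and 31.9 CPM with it, a 4.04-fold rise (edgeR adjusted p = 4.61e-06). H2BC21 stood at 29.5, 31.1 and 32.5 CPM and at 121, 74.2 and 94.3 CPM, a 3.11-fold rise (edgeR adjusted p = 3.91e-07). H3C10 stood at 37.1, 40.9 and 37.6 CPM and at 119, 73.3 and 96.0 CPM, a 2.49-fold rise. In all of these the groups did not overlap, and replicate 2 was the lowest library with sgRNA. That order held for all 26 histone genes called higher. H2BC8 went from 16.9, 22.7 and 18 CPM to 100, 37.1 and 88.2 CPM, and its log2 fold change was 1.97 with and 2.30 without replicate 2. H2BC12 rose 1.47-fold (edgeR adjusted p = 0.0231), a call lost in 6 of 15 alternative settings. These genes are near-identical copies, and reads may have been shared between them, so values for single histone genes are uncertain.

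Other known markers of BET inhibition rose with sgRNA. Of 9 tested in that list, of which 3 are histone genes counted above, 7 rose and 0 fell with or without replicate 2, with a median log2 fold change of 1.05. Summed, the 10 listed genes stood at 662 to 681 CPM without and 931 to 1330 CPM with sgRNA. The sum was 621 to 711 CPM in the control and 687 to 730 CPM under JQ1 with sgRNA. Under JQ1 without sgRNA it was 630 to 647 CPM, within the range of the control. TXNIP, an inhibitor of thioredoxin that also restrains glucose uptake, stood at 79.1, 87.9 and 71.1 CPM without and 293, 254 and 303 CPM with sgRNA (log2 fold change 1.84 ± 0.12; edgeR adjusted p = 3.8e-09). ARRDC4, an arrestin relative that like TXNIP responds to glucose through MondoA and MLX, stood at 6.83, 6 and 5.38 CPM without and 12.1, 12.8 and 13.5 CPM with sgRNA, a 2.10-fold rise. SAT1, which acetylates polyamines for export and breakdown, stood at 19, 23.2 and 22.0 CPM without and 59.9, 49.1 and 43.7 CPM with sgRNA, a 2.38-fold rise. For these 3 genes all libraries with sgRNA lay above all libraries without it, replicate 2 among them.

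HEXIM1, the inhibitor of P-TEFb, and SERPINI1 did not pass the test. HEXIM1 stood at 130, 126 and 134 CPM without sgRNA and at 167, 86.6 and 139 CPM with it, so that replicates 1 and 3 lay above and replicate 2 below all libraries without sgRNA. Its log2 fold change was 0.01 with that replicate and 0.24 without it (edgeR adjusted p = 0.968 and 0.155). Among 18 tested genes for BET proteins and P-TEFb, CCNT2, a cyclin subunit of P-TEFb, was the 1 call, from 34.2, 38.9 and 30.7 CPM to 20.8, 19.6 and 19.7 CPM (1.73-fold lower, edgeR adjusted p = 0.00223).

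Several transcriptional repressors fell. HES1, a basic helix-loop-helix repressor and Notch target, stood at 62.4, 73.2 and 72.1 CPM without and 14.9, 14 and 15.5 CPM with sgRNA, a 4.67-fold fall. BHLHE40, a repressor of the same class linked to the circadian clock, stood at 130, 129 and 133 CPM without and 45.1, 52.9 and 43.5 CPM with sgRNA, and the Notch target HEY1 at 16.4, 11.7 and 15.9 CPM and 6.82, 5.59 and 7.06 CPM. These 3 were the calls among 17 tested genes of the Notch pathway and such repressors, with or without replicate 2, and the median of the 17 was -0.04. In each of the 3 the groups did not overlap.

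Of 18 tested forkhead factor genes, 3 fell and 0 rose, in a list that like the others was written with earlier results known. All 3 encode FOXA factors, which open chromatin in endoderm. FOXA2 stood at 9.17, 8.77 and 10.5 CPM without and 1.38, 2.05 and 1.72 CPM with sgRNA (log2 fold change -2.46 ± 0.22, edgeR adjusted p = 3.12e-07). FOXA3 stood at 11, 9.89 and 9.54 CPM without and 3.45, 5.19 and 5.77 CPM with sgRNA, a 2.10-fold fall. FOXA1, at 2.89, 2.97 and 4.15 CPM without and 0.996, 1.89 and 1.78 CPM with sgRNA, lost its call in 3 of 14 settings.

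Retinoic acid genes gave 3 falls and 0 rises among 10 tested (2 falls without replicate 2), where 4.2% of all genes tested fell and 2.06% rose. CYP26A1, which degrades retinoic acid, stood at 12.7, 11.3 and 12.1 CPM without and 3.75, 2.75 and 3.13 CPM with sgRNA, a 3.75-fold fall. DHRS3, which reduces retinaldehyde, stood at 64.9, 74.3 and 74.5 CPM without and 35.6, 52.2 and 37.3 CPM with sgRNA, a 1.71-fold fall. RARA, a retinoic acid receptor, passed with replicate 2 and not without it (edgeR adjusted p = 0.0391 and 0.134), and lost its call in 6 of 15 settings.

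Feedback genes of growth factor pathways fell in part. Of 20 tested genes of TGF-beta and BMP feedback, 4 fell and 1 rose (5 and 1 without replicate 2). TGIF1, a repressor of SMAD signalling, stood at 41.5, 50 and 46.8 CPM without and 17.2, 19.9 and 16.8 CPM with sgRNA. CITED2, which binds the coactivators CBP and p300, fell 2.95-fold, the decoy receptor BAMBI 2.21-fold and the BMP target ID1 2.01-fold. SMAD6, an inhibitory SMAD named after its values were seen, moved the other way, from 25.2, 26.6 and 27.9 CPM to 42.2, 40.1 and 42.4 CPM (1.57-fold higher, edgeR adjusted p = 0.00159). Among 17 tested ERK feedback genes 5 fell and 1 rose (5 and 0 without replicate 2), SPRY4 by 1.68-fold and SPRY1, low throughout at 1.48, 2.31 and 1.69 CPM against 0.383, 0.63 and 0.43 CPM, by 3.78-fold.

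BCR-ABL1 keeps STAT5 active in K562 cells, and 4 of 12 tested STAT5 target genes fell and 0 rose (6 and 0 without replicate 2; medians -0.25 and -0.39). The cytokine signalling inhibitors SOCS1, SOCS2 and SOCS3 fell by 1.88-, 1.56- and 1.57-fold. SOCS2 stood at 157, 152 and 150 CPM without and 88.0, 115 and 92.5 CPM with sgRNA, and replicate 2 was the highest of the 3. CISH, of the same family, stood at 106, 109 and 121 CPM without and at 54.8, 107 and 70.8 CPM with sgRNA, so that replicate 2 lay within the group without sgRNA. Its edgeR adjusted p was 0.0429 with and 4.29e-05 without that replicate, and the call was lost in 6 of 15 settings.

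PIM1, a survival kinase induced by STAT5, differed between replicates. It stood at 556, 595 and 619 CPM without sgRNA, and at 131, 652 and 159 CPM with sgRNA. Replicates 1 and 3 lay far below the group without sgRNA and replicate 2 above it. The log2 fold change was -0.91 with replicate 2 (edgeR adjusted p = 0.119) and -2.02 without it (edgeR adjusted p = 5.71e-10).

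NF-kB target genes fell in 9 of 19 cases and rose in 0 (8 and 1 without replicate 2), with a median of -0.27 (-0.47 without replicate 2). NFKBIA, the inhibitor that holds NF-kB in the cytoplasm, stood at 21.4, 23.1 and 20.7 CPM without and 9.12, 7.48 and 9.58 CPM with sgRNA, a 2.48-fold fall. TNFAIP3, an enzyme that edits ubiquitin to end the signal, stood at 6.89, 8.97 and 7.85 CPM without and 3.29, 3.38 and 3.38 CPM with sgRNA. The chemokine gene CXCL3 stood at 6.65, 7.38 and 9.54 CPM without and 0.536, 0.866 and 0.737 CPM with sgRNA, and CXCL2 at 3.57, 5.67 and 5.15 CPM and 0.306, 0.472 and 0.368 CPM. The groups did not overlap for any of these 4. CXCL2 and CXCL3 are close copies of each other in sequence, so reads may be shared between them.

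Transcription factors that set the erythroid and stem cell programme fell in 8 of 20 cases and rose in 0 (11 and 0 without replicate 2), with a median of -0.34 (-0.49 without replicate 2). NFE2, which activates globin genes, stood at 288, 293 and 299 CPM without and 93.3, 176 and 130 CPM with sgRNA, a 2.20-fold fall. LMO2, the bridging protein of the TAL1 complex, stood at 70.3, 62.2 and 71.3 CPM without and 37.7, 44.8 and 38.8 CPM with sgRNA, and KLF1 at 139, 135 and 151 CPM and 78.4, 86.3 and 87.1 CPM. GATA2, a factor of stem cells and progenitors, stood at 356, 373 and 398 CPM without and 258, 280 and 252 CPM with sgRNA, a 1.43-fold fall. For these 4 all libraries with sgRNA lay below all without it.

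GFI1B and MYB, named after their values were seen, depended on replicate 2. GFI1B, a transcriptional repressor active in erythroid and megakaryocytic cells, stood at 92.4, 96.7 and 104 CPM without and 37.2, 88.3 and 47.2 CPM with sgRNA, and its call was lost in 6 of 15 settings. MYB, a proto-oncogene of progenitor cells, stood at 121, 92.8 and 101 CPM without and 62.4, 103 and 65.8 CPM with sgRNA, and was called without replicate 2 but not with it (edgeR adjusted p = 0.0688 with and 0.000334 without it). Of 19 tested genes for erythroid proteins such as globins and surface proteins, 0 rose and 1 fell (0 and 0 without replicate 2).

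Immediate early genes, switched on within minutes by growth signals and stress, were split. Of 23 tested, 7 rose and 3 fell (10 and 2 without replicate 2). FOS, a subunit of the factor AP-1, stood at 17.9, 22.9 and 24.8 CPM without and 83.7, 31.8 and 74.8 CPM with sgRNA. Its log2 fold change was 1.54 with and 1.86 without replicate 2. EGR1, a zinc finger factor named after its values were seen, stood at 274, 320 and 322 CPM without and 560, 210 and 533 CPM with sgRNA, and was called without replicate 2 (edgeR adjusted p = 0.000463) but not with it (0.194). JUNB, another AP-1 subunit named after its values were seen, stood at 89.6, 95.5 and 107 CPM without and 172, 90.2 and 177 CPM with sgRNA, and lost its call in 6 of 15 settings. In all 3 genes replicates 1 and 3 lay above the group without sgRNA, while replicate 2 lay at 31.8 CPM above it for FOS, below it for EGR1 and within it for JUNB. FOSL1, an AP-1 subunit too, moved the other way in all 3 libraries, from 49.4, 53.5 and 58.8 CPM to 27.2, 21.2 and 28.4 CPM (2.10-fold lower). GADD45B, a stress gene that acts on p38 signalling, stood at 6.52, 5.87 and 5.00 CPM without and 15.6, 6.69 and 14 CPM with sgRNA, and lost its call in 2 of 15 settings.

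Of 18 tested heat shock genes, 2 rose with replicate 2 and 5 without it, and 0 fell. DNAJB1, a co-chaperone of HSP70, stood at 140, 116 and 122 CPM without and 252, 124 and 271 CPM with sgRNA, and lost its call in 5 of 15 settings. HSPA1A, an inducible HSP70 that is nearly identical to HSPA1B, stood at 181, 202 and 200 CPM without and 294, 139 and 288 CPM with sgRNA, and passed only without replicate 2 (edgeR adjusted p = 0.334 with and 0.0019 without it).

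Of 30 tested ATF4 and unfolded protein response genes, 8 rose and 1 fell (5 and 2 without replicate 2). Over all genes tested 2.06% rose and 4.2% fell. ASNS, asparagine synthetase, stood at 421, 407 and 391 CPM without and 551, 902 and 543 CPM with sgRNA, so that replicate 2 was the highest. HSPA5, the endoplasmic reticulum chaperone BiP, stood at 738, 671 and 721 CPM without and 917, 1330 and 907 CPM with sgRNA, and lost its call in 2 of 15 settings. HERPUD1, a factor of protein disposal from that compartment, rose alike in all 3, from 29.7, 28.2 and 25.6 CPM to 44.0, 46.7 and 47.6 CPM. Of 23 cholesterol synthesis genes 3 rose and 1 fell (2 and 0 without replicate 2), with INSIG1, the sterol sensor's anchor, at 171, 145 and 143 CPM without and 270, 251 and 304 CPM with sgRNA.

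Among genes of growth and the cell cycle, those of ribosome biogenesis gave the most falls by number. Without replicate 2 they gave 4 of 34, beside 3 of 26 for G1 cyclin, CDK inhibitor and E2F genes. Over all genes tested 4.2% fell (4.38% without replicate 2). Of 26 tested G1 cyclin, CDK inhibitor and E2F genes, 3 fell and 0 rose (3 and 1 without replicate 2). Cyclin D1, CCND1, stood at 55.9, 56.2 and 53.2 CPM without and 26.4, 26.9 and 25.7 CPM with sgRNA, with little spread in either group (2.09-fold lower, edgeR adjusted p = 3.67e-07). E2F2, an activator of S phase genes, stood at 24.7, 27.0 and 28.2 CPM without and 11.5, 14.9 and 12.9 CPM with sgRNA, and E2F8, a repressor of such genes, fell 1.80-fold. Among 34 ribosome biogenesis genes, many of them known MYC targets, 7 fell and 0 rose (4 and 0 without replicate 2); PPAN stood at 47.6, 62.3 and 62.2 CPM without and 31.6, 21 and 35.3 CPM with sgRNA. None of 67 ribosomal protein genes, 13 mitochondrially encoded genes or 12 housekeeping genes was called with or without replicate 2.

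Non-coding host transcripts were among the falls. MIR17HG, which carries the miR-17-92 cluster of microRNAs and is a known MYC target, stood at 23.5, 36 and 29.7 CPM without and 14.4, 10.6 and 12.5 CPM with sgRNA (2.37-fold lower). MIR223HG, the host of the myeloid microRNA miR-223, stood at 46.0, 77.5 and 65.9 CPM without and 15.7, 34.2 and 15.2 CPM with sgRNA. SNHG15, a host of a small nucleolar RNA, stood at 43.0, 56.4 and 53.2 CPM without and 23.5, 22.6 and 21.6 CPM with sgRNA. Of 18 tested snoRNA hosts 2 rose and 2 fell (4 and 2 without replicate 2); SNHG1 stood at 235, 332 and 292 CPM without and 646, 258 and 552 CPM with sgRNA, and lost its call in 10 of 15 settings. LINC02432 rose, from 17.5, 19.4 and 17.8 CPM to 60, 48.6 and 51.3 CPM. Counting is not stated to use strand, so reads of overlapping antisense genes cannot be told apart.

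Of 9 tested genes for lysophospholipid and other receptors 1 fell, with or without replicate 2. That single call stands beside 4.2% of all genes tested that fell. LPAR5, a receptor for lysophosphatidic acid, stood at 20.3, 17.9 and 22.3 CPM without and 6.13, 5.51 and 6.63 CPM with sgRNA. F2RL3, a thrombin receptor named for the size of its fall, stood at 54.8, 52.6 and 58.8 CPM without and 18.3, 19.1 and 23.6 CPM with sgRNA. SLC40A1, the iron exporter ferroportin, named likewise, stood at 35.1, 38.6 and 39.9 CPM without and 14.7, 17.7 and 15 CPM with sgRNA. RHOH, a GTPase of blood cells, fell by 1.58 on the log2 scale with replicate 2 and by 1.90 without it. For these 4 genes the groups did not overlap, a condition set in advance for genes named by the size of their change.

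The genes that fell were short. Protein-coding genes called lower had a median span of 13388 bases and 6 exon blocks, those called higher 45483 bases and 12, and all 12126 tested 30442 bases and 11. These medians were computed only with replicate 2 included. Of the 319 genes of any type called higher, 151 were not called without it. Among genes of up to 5000 bases 9.2% fell, and the share declined over 7.26%, 4.16% and 1.85% to 0.906% among genes over 100000 bases. Without replicate 2 these shares were 8.29%, 7.4%, 4.19%, 2.8% and 1.57%. Of 273 genes with a single exon block that are not listed histone genes, 16.8% fell (13.9% without replicate 2). Rises were called in 4.1% of genes up to 5000 bases (2.63% with listed histone genes left out), then in 1.2%, 1.65%, 2.04% and 4.24% of the longer classes. Without replicate 2 these shares were 5.1% (3.57% with listed histone genes left out), 1.52%, 1.08%, 1.19% and 1.38%.

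Genes named ZNF, for zinc finger proteins, many of which are repressors, fell in 54 of 412 cases (13.1%) and rose in 1; without replicate 2, 63 fell (15.3%) and 1 rose. Their median log2 fold change was -0.22 against 0.01 over all genes. The group was counted after its values were seen. ZNF689, the one with the largest fall among those the naming rule took, stood at 18.1, 15.2 and 14.1 CPM without and 5.36, 6.22 and 7.06 CPM with sgRNA. Those on chromosome 19, where such genes lie in clusters, fell in 20 of 199 cases (10.1%), and in 23 (11.6%) without replicate 2.

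Replicate 2 with sgRNA was then set against replicates 1 and 3. Of 10495 genes at a mean of at least 5 CPM, 438 lay over 1.5-fold above both other replicates and 340 over 1.5-fold below both. For replicates 1 and 3 the counts were 29 and 22, and 3 and 13, and for the libraries without sgRNA they ranged from 2 to 19 above and from 2 to 122 below. Outside these 6 libraries, JQ1 with sgRNA replicate 1 stood apart from its group too, with 312 genes above and 264 below. Of the 438 genes, 405 had a mean under JQ1 without sgRNA that was above the control, and of the 340, 306 had a lower one; over all 10495 genes 4972 were higher and 5523 lower. Those JQ1 and control libraries are none of the 6 compared here. The median log2 difference of JQ1 against the control was 0.45 for the 438 genes, -0.41 for the 340 and -0.02 over all.

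PIM1, for example, averaged 495 CPM in the control and 810 CPM with JQ1 without sgRNA, beside 652 CPM in replicate 2. ASS1, argininosuccinate synthase of arginine supply, averaged 13.9 CPM in the control and 51.2 CPM with JQ1. It stood at 17.2, 15.8 and 16.6 CPM without sgRNA and at 21.1, 62.4 and 20.1 CPM with sgRNA, and was called higher only with replicate 2 (edgeR adjusted p = 0.0248 with and 0.155 without it). FUT1, which builds the H blood group antigen, stood at 9.85, 11.3 and 11.6 CPM without and 5.98, 32.0 and 7.98 CPM with sgRNA, and its log2 fold change was 0.47 with and -0.63 without replicate 2 (edgeR adjusted p = 0.485 and 0.0284). HEMGN, a nuclear protein of erythroid cells, stood at 50.4, 42.3 and 41.7 CPM without and 27.7, 67.8 and 26.1 CPM with sgRNA. INHBE, an activin subunit gene, stood at 28.4, 19.9 and 23.5 CPM without and 7.05, 25.1 and 8.17 CPM with sgRNA, and PLAU, urokinase, at 10.5, 9.96 and 11.2 CPM and 4.06, 11 and 3.19 CPM. HEMGN, INHBE and PLAU were called lower without replicate 2 and not with it.

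Of the 498 genes called lower with and without replicate 2, it was the highest of the 3 libraries with sgRNA in 241 and the lowest in 158. The biological coefficient of variation over all groups was 11.1% with and 9.51% without it.

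Whether the sgRNA effect depended on the compound was tested as the difference between its effects under JQ1-FCPF and under JQ1. It passed for 122 genes (0.786%), 30 higher (0.193%) and 92 lower (0.593%), and without replicate 2 for 344 of the same 15517 tested genes (2.22%), 108 higher (0.696%) and 236 lower (1.52%). The count without a single library ranged from 50 to 346. It was 68, 50 and 61 without JQ1 without sgRNA replicates 1, 2 and 3, 62 and 58 without JQ1-FCPF without sgRNA replicates 2 and 3, and 74 and 346 without JQ1-FCPF with sgRNA replicates 1 and 2. Under JQ1 alone 2 genes were called with against without sgRNA (0.0129%), HES1 and BHLHE40, with 1264 at an unadjusted p under 0.05. That comparison holds JQ1 with sgRNA replicate 1, which stands apart from its group, and its effect on the count was not tested. The groups with sgRNA under JQ1 averaged 36.8 CPM for HES1 and 95.6 CPM for BHLHE40, against 65.8 and 148 CPM without sgRNA.

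Among the groups described above, the difference passed for 13 of 44 histone genes, 4 of 9 BET inhibitor markers, 4 of 19 NF-kB targets, 3 of 17 Notch genes and bHLH repressors, 2 of 20 erythroid and stem cell factors, 1 of 12 STAT5 targets and 0 of 34 ribosome biogenesis genes. MYC had a difference of -1.24 on the log2 scale (edgeR adjusted p = 0.00187), TXNIP of 1.22 (0.00124) and ZNF689 of -1.61 (0.00124). PHACTR1, an actin-binding regulator of phosphatase 1, had a log2 fold change of -1.31 under JQ1-FCPF and of 0.00 under JQ1. ARRDC4 rose under JQ1-FCPF, and its difference of 0.64 did not pass (edgeR adjusted p = 0.142).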

How the data were processed

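RNA sequencing of 15 K562 libraries in 5 groups of 3 was analysed from raw counts. Per the file headers, the authors deposited 1 table of counts per library with 57500 genes. The aligner, build, annotation, kit and use of strand were not given in the sources used here. GENCODE release 29 (GRCh38) held 56898 of their identifiers, 96.3% of them at the same coordinates. Groups and replicate numbers came from the labels.

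The deposited counts were fitted with edgeR 4.0.16 in R 4.3.3: filterByExpr, TMM, and the quasi-likelihood test, with a term for each group and all 15 libraries, which share 1 estimate of spread. Fold changes carry the standard error (SE). A gene was called at a Benjamini-Hochberg adjusted p under 0.05 over all genes tested. CPM are TMM-scaled, computed here; log2 CPM carry a prior count of 2. The fit was repeated without JQ1-FCPF with sgRNA replicate 2. At totals of 12625669 to 17544518 counts, counting error is small except at a few CPM. Alternatives were DESeq2 1.42.0, other scalings and filters, only the groups compared, a replicate block, and leaving out each library.

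The comparison, gene lists and naming rule were chosen with earlier results of these data known. Genes named are MYC, BET inhibitor markers, the largest protein-coding and non-coding rises and falls (mean of at least 5 CPM, called with and without replicate 2, groups not overlapping), the members of smallest p in each list (at most 4), genes called in 1 of the 2 fits whose fold change moved most, and those with the smallest p for the difference between compounds. SKIL, PVT1, SMAD6, GFI1B, MYB, EGR1 and JUNB were named outside the rule. Lists are described by counts and medians. Promoter sequences are from RefSeq (GRCh38.p14), matched by symbol.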

Additional observations from a re-analysis of the deposited data

Results flagged for a closer look

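The sgRNA effect differed between JQ1-FCPF and JQ1, by the test of the difference itself (edgeR quasi-likelihood interaction, adjusted p under 0.05), for 43 of the genes named in the text. The values in parentheses are the log2 fold change with against without sgRNA under JQ1-FCPF minus that under JQ1. Differences below -1.2 were found for CXCL2 (-3.47), CXCL3 (-2.56), MIR223HG (-1.82), FOXA2 (-1.80), ZNF689 (-1.61), LPAR5 (-1.44), CITED2 (-1.43), HES1 (-1.38), MIR17HG (-1.35), PHACTR1 (-1.31), CYP26A1 (-1.26), MYC (-1.24), RHOH (-1.24) and TNFAIP3 (-1.23). Smaller negative differences were found for NFKBIA (-1.18), SNHG15 (-1.15), E2F2 (-1.12), F2RL3 (-1.10), INKA1 (-1.08), SLC40A1 (-1.05), HEY1 (-1.04), CCNT2 (-1.03), NFE2 (-0.98), TGIF1 (-0.96), CCND1 (-0.94), BHLHE40 (-0.84), SOCS2 (-0.69) and LMO2 (-0.64). Histone genes with a positive difference were H2BC7 (1.76), H2BC9 (1.57), H2BC8 (1.49), H2AC11 (1.23), H2BC21 (1.16), H2BC5 (1.08) and H3C10 (1.04). Other positive differences were found for FOS (1.71), KLF2 (1.47), LINC02432 (1.31), TXNIP (1.22), SAT1 (1.17), ASNS (0.94), SMAD6 (0.82) and INSIG1 (0.64). Adjusted p-values of these genes ranged from 0.0012 to 0.0497. Under JQ1 the log2 fold change of these genes lay between -0.88 and 0.62. The genes were named partly for their change under JQ1-FCPF, so the size of the difference is not independent of that choice. Of the 122 genes whose difference passed over all genes tested, 122 passed without JQ1-FCPF with sgRNA replicate 2, 101 without JQ1 with sgRNA replicate 1 and 120 without both, the libraries that stand apart from their groups.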

How the results depend on the processing

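Of 91 genes named in the text, 65 were called in all alternatives run and 66 kept direction and call in all. Of 1359 log2 fold changes of these genes under the alternatives, 72 lost and 27 gained a call and 18 changed sign, in HEXIM1, FUT1, HEMGN, SKIL and PVT1. Over leave-one-out fits the log2 fold change ranged from -0.1979 to 0.2424 for HEXIM1, -0.6294 to 0.8509 for FUT1, -0.7354 to 0.0902 for HEMGN, -0.1978 to 0.0811 for SKIL and -0.1038 to 0.0543 for PVT1. HEXIM1 had -0.0013 under the replicate block. Without replicate 2 with sgRNA and JQ1 with sgRNA replicate 1, FUT1 had -0.6259 and PVT1 0.0491; with only the groups compared and without that replicate 2 they had -0.6396 and 0.0389. Over leave-one-out fits, genes called with against without sgRNA numbered 428 to 1129, and the genes whose sgRNA effect differed between compounds 50 to 346. With only the groups compared these counts were 351 and 81, and 1018 and 257 with replicate 2 with sgRNA left out as well. Without the 2 libraries that stand apart they were 1600 and 511. The difference between compounds gave 267 genes by DESeq2 and 316 with no filter on low counts. The share of higher calls moved with the setting, from 71 of 351 with only the groups compared to 488 of 1129 without JQ1-FCPF without sgRNA replicate 1. Other scalings left the median log2 fold change within 0.0128 of 0. The cause of these changes was not tested.

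The title letters were not used to pair libraries: same-letter deviations with and without sgRNA correlated at -0.254, -0.0786 and 0.0655. With the letter as a replicate block the counts were 833 and 93. Depth limits genes at a few CPM such as SPRY1, CXCL2 and FOXA1, and histone copies may share reads.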

Other observations

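Further named genes moved in groups not described above. ADARB1, an RNA-editing enzyme, stood at 14.8, 19.3 and 19.9 CPM without and 63.5, 26.3 and 37.8 CPM with sgRNA (2.37-fold higher), and the groups did not overlap. INKA1, an inhibitor of the kinase PAK4, stood at 19.9, 22.5 and 21.2 CPM without and 6.51, 7.32 and 8.54 CPM with sgRNA. NR1D1, a repressor of the circadian clock, fell 2.09-fold, from 9.97, 10.7 and 13 CPM to 4.75, 5.67 and 5.65 CPM. KLF2, a factor of quiescent blood and endothelial cells, was low but rose from 1.60, 1.85 and 2.08 CPM to 4.44, 4.09 and 4.61 CPM. ZCCHC24 rose 1.47-fold.

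Interferon and RNA sensing genes gave 1 rise and 0 falls among 16 tested, beside 2.06% of all genes tested higher and 4.2% lower. That gene, IRF7, a regulator of interferon genes, stood at 8.68, 9.36 and 12.8 CPM without and 21.8, 11.8 and 17.3 CPM with sgRNA, where replicate 2 lay within the group without sgRNA, and lost its call in 4 of 15 settings. The ribosome biogenesis gene RRS1 fell 1.57-fold and PPRC1, a coactivator of mitochondrial genes, 1.53-fold. Among snoRNA hosts SNHG17 fell 1.67-fold, whereas SNHG3 rose 1.46-fold, with replicate 2 inside the range of the libraries without sgRNA, and lost its call in 5 of 15 settings.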
